A study of Homo sapiens with 2 samples.

Results

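Described here are 7 genes of the stress response in HGC-27 cells, a human line from a gastric carcinoma: 6 genes for secreted hormones and growth factors (FGF21, GDF15, INHBE, ADM2, STC2 and ANGPTL4) and NUPR1, which encodes a small nuclear protein. They were picked by name, with earlier results from these same libraries known, and all 7 were found by Ensembl identifier among the 63677 genes of the deposited count table. RNA was sequenced from 1 culture transfected with the plasmid pcDNA3.1-lncPSCA, which carries the long non-coding RNA lncPSCA, and from 1 culture transfected with the empty plasmid pcDNA3.1, the control. Both received the reagent INTERFERin and were collected at 48 hours, so plasmid and reagent are shared by both groups and no untransfected culture was used here. The lncPSCA library held 23016646 counts and the control library 21552098.

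With 1 library in each group there was no spread between cultures to measure and no test between groups. Every fold below compares these libraries only and carries an exact 95% interval for counting error, which may be too narrow since PCR copies of a molecule count more than once. Abundance is given as CPM, counts scaled to a common library size. In bulk RNA, a difference in a share of the cells and one in every cell cannot be told apart. A gene is called higher or lower in the lncPSCA library when its mean over both libraries is at least 1 CPM, its ratio is at least 2-fold and its counting interval lies wholly beyond 1.5-fold. In all, 15440 genes reached the CPM minimum and are called measured. PSCA, the protein-coding gene that gives lncPSCA its name, had 28699 reads in the lncPSCA library and 22 in control. Whether the reads counted for PSCA come from the plasmid or from the PSCA gene itself was not tested. Of the 6 epithelial markers examined, 3 were measured, all under 4 CPM, and EPCAM had 7 reads in each library, KRT18 had 0 in lncPSCA and 4 in control, and KRT19 had 0 in lncPSCA and 1 in control. Of the 4 mesenchymal markers, VIM stood at 2594 CPM in lncPSCA and 2601 CPM in control, FN1 was called higher (2.35-fold, 2.13 to 2.59), ZEB1 was at 1.82-fold (1.63 to 2.04) and CDH2 had 6 reads in lncPSCA and 4 in control. The epithelial markers were thus low in this line from a gastric carcinoma, and the cells are called HGC-27 throughout. Keratin genes have near-identical pseudogenes, and how reads matching several places were counted is not stated. The endothelial markers PECAM1 and CDH5, the T-cell marker CD3E and the fat-cell hormone gene ADIPOQ had no reads in either library.

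Cells short of amino acids, or with unfolded protein, viral RNA or haem deficiency, activate kinases that phosphorylate the translation initiation factor eIF2. General translation then drops while translation of the transcription factor ATF4 rises, and ATF4 with its partners, among them DDIT3 (CHOP) and C/EBP proteins, switches on a set of genes known as the integrated stress response. Several of those genes encode secreted factors, which is how a stress sensed in a single cell reaches other tissues. FGF21 and GDF15 are the best known: in liver, FGF21 is released in fasting and protein restriction, and GDF15 acts on the brainstem to lower appetite. ATF4 acts through composite C/EBP-ATF elements in its target promoters, and DNA from the promoters of FGF21, ADM2 and ANGPTL4 is shown to make the difference in sequence visible between the gene with the largest fold, the gene with the next largest and the gene whose fold was closest to 1.

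Each stretch runs from 250 bases before the transcription start to 50 after it, read 5′ to 3′ on the gene's strand, with sequences credited to RefSeq (GRCh38.p14). FGF21 lies at chr19:48755274-48755573 on the plus strand, ADM2 at chr22:50481293-50481592 on the plus strand, and ANGPTL4 at chr19:8363905-8364204 on the plus strand. Capitals mark matches to any of 3 motifs sought on both strands: TGATGNAA, the core of the C/EBP-ATF element; ACGTG, the core of hypoxia response elements; and GAAANNGAA, part of interferon-stimulated response elements. The motifs were allowed to overlap.
FGF21: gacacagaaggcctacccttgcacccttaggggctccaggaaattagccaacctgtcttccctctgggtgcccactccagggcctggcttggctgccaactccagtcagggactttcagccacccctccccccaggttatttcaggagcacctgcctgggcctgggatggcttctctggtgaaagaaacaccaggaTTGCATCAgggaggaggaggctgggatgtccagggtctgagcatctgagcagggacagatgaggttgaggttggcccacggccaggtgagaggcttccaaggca
ADM2: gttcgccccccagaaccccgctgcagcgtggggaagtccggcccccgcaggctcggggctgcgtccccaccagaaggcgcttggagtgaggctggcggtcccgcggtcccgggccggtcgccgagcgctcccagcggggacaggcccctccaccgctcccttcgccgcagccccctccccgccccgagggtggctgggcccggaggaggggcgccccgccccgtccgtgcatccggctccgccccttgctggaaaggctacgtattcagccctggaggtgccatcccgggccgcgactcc
ANGPTL4: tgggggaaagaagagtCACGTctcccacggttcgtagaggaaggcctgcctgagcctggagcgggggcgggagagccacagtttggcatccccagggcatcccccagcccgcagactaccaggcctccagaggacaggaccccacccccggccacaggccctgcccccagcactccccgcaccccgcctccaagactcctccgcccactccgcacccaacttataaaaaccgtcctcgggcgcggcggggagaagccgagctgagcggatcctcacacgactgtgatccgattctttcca

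Promoters were found for 5 of the 7 genes (FGF21, GDF15, ADM2, STC2 and ANGPTL4). TGATGNAA occurred in 1 of them, FGF21, where it reads TTGCATCA on the printed strand, 54 to 47 bases before the start. ACGTG occurred only in ANGPTL4, as CACGT, and GAAANNGAA in none. Over all 35116 promoters of the table, 3.62% held TGATGNAA, 21.4% held ACGTG and 8.11% held GAAANNGAA. A match is a string of letters and not a measured binding site, and elements outside these 300 bases were not looked for.

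FGF21 (ENSG00000105550, chromosome 19), the hormone of fasting and protein restriction, had the largest fold of the 7. It was covered by 224 reads in the lncPSCA library and 54 in control, or 9.53 CPM (counting interval 8.32 to 10.9) in lncPSCA and 2.56 CPM (1.92 to 3.34) in control. The fold was 3.72 (2.75 to 5.11), and 130 of the measured genes (0.842%) had a larger log2 ratio. It also had the fewest reads of the 7 in both libraries, and its interval is the widest of the 5 genes called higher. FUT1, a fucosyltransferase gene on the opposite strand that lies 169 bases away in GENCODE release 29, was higher as well, with 108 reads in lncPSCA and 30 in control and a fold of 3.23 (2.14 to 5.02). Whether counting used strand is unknown, and whether reads of these neighbours were mixed was not tested.

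ADM2 (ENSG00000128165, chromosome 22), also called intermedin, encodes a peptide of the calcitonin family that dilates blood vessels. It had 1971 reads in lncPSCA and 541 in control, or 83.8 CPM (80.2 to 87.6) in lncPSCA and 25.6 CPM (23.5 to 27.9) in control. The fold of 3.27 (2.97 to 3.603) overlapped that of FGF21 within counting error, and 165 measured genes had a larger log2 ratio.

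INHBE (ENSG00000139269, chromosome 12) encodes the beta E subunit of inhibin, the chain of activin E, a liver-secreted protein that restrains fat breakdown in adipose tissue. It had 1743 reads in lncPSCA and 545 in control, or 74.1 CPM (70.7 to 77.7) in lncPSCA and 25.8 CPM (23.7 to 28.1) in control, a fold of 2.87 (2.61 to 3.17). Its fold interval overlapped those of ADM2 and FGF21, and 214 measured genes had a larger log2 ratio.

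STC2 (ENSG00000113739, chromosome 5), stanniocalcin-2, is a secreted glycoprotein that inhibits the protease PAPP-A and so limits release of insulin-like growth factors. It had 3952 reads in lncPSCA and 1538 in control, or 168 CPM (163 to 173) in lncPSCA and 72.9 CPM (69.3 to 76.6) in control, a fold of 2.31 (2.17 to 2.45). The libraries differed by 95.2 CPM for this gene, and 383 measured genes had a larger log2 ratio.

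GDF15 (ENSG00000130513, chromosome 19), the appetite-lowering cytokine, had 852 reads in lncPSCA and 377 in control. This was 36.2 CPM (33.8 to 38.8) in lncPSCA and 17.9 CPM (16.1 to 19.8) in control, a fold of 2.03 (1.79 to 2.30). It lay just inside the 2-fold limit, with a log2 ratio of 1.02, and fell short of it at 0.99 under upper-quartile scaling.

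NUPR1 (ENSG00000176046, chromosome 16), a chromatin-associated protein that ATF4 is known to induce, had the most reads of the 7. It had 4716 reads in lncPSCA and 2940 in control, or 201 CPM (195 to 206) in lncPSCA and 139 CPM (134 to 144) in control. Its fold of 1.44 (1.37 to 1.51) did not reach the 2-fold limit, although the interval lay wholly above 1.

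ANGPTL4 (ENSG00000167772, chromosome 19), an inhibitor of lipoprotein lipase induced by fatty acids through PPAR receptors and by hypoxia, had 573 reads in lncPSCA and 532 in control. It stood at 24.4 CPM (22.4 to 26.5) in lncPSCA and 25.2 CPM (23.1 to 27.5) in control, a fold of 0.967 (0.858 to 1.09). Its log2 ratio was -0.05, and 0.01 under total-count scaling. In GENCODE release 29 its exons overlap those of the antisense gene RAB11B-AS1, which had 170 reads in lncPSCA and 153 in control.

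**Figure D1:**
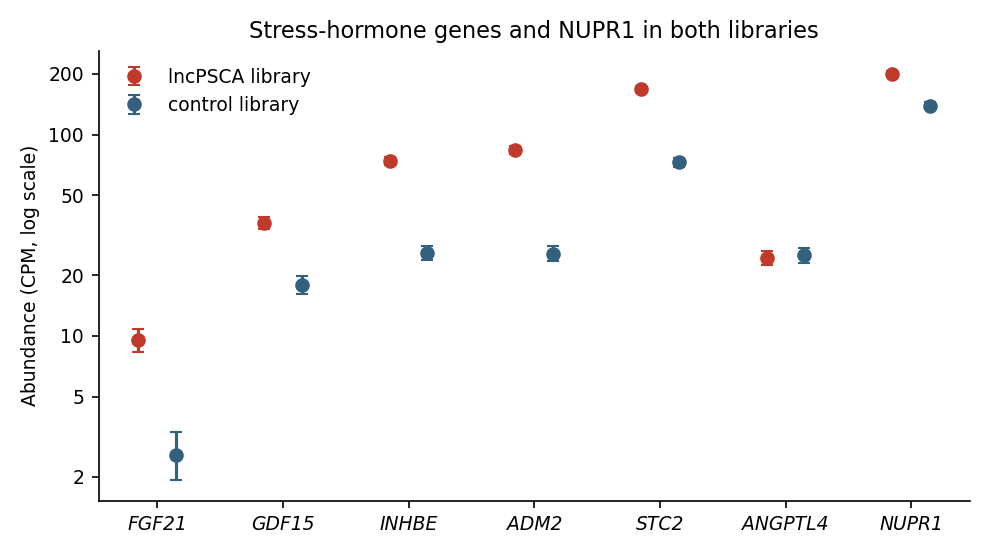
Abundance in CPM on a log axis of the 6 hormone genes and NUPR1 in the lncPSCA library (red, left of each pair) and the control library (blue), each point 1 library with its exact 95% counting interval. The intervals overlap for ANGPTL4, at 24.4 CPM in lncPSCA and 25.2 CPM in control, and the red point is the higher one for the other genes. Intervals hold counting error only, and at high read counts small folds separate too. Those of ATF4, at 1.22-fold, are 615 to 635 CPM in lncPSCA and 503 to 522 CPM in control.

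Of the 7 genes, 5 were called higher, none lower and 2 neither, where 3.02% of all measured genes were called higher and 0.596% lower. Because the genes were chosen with these libraries in view, that count describes the choice and supports nothing further. By sign alone, 6 of the 7 had a log2 ratio above 0, as did 48.1% of all measured genes. The median log2 ratio of the 7 was 1.20, a 2.31-fold difference, and that of all measured genes was -0.02. Log2 ratios are computed with a pseudocount of 1 read.

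Among themselves the genes were not alike. Of the 21 pairs, the fold intervals were separate in 17 and overlapped in 4: FGF21 with INHBE, FGF21 with ADM2, INHBE with ADM2, and GDF15 with STC2. FGF21, ADM2 and INHBE, between 2.87-fold and 3.72-fold, thus formed the upper part of the order, STC2 and GDF15 the middle, then NUPR1 and last ANGPTL4. The intervals hold counting error only, and differences between cultures could reorder any of them.

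**Figure D2:**
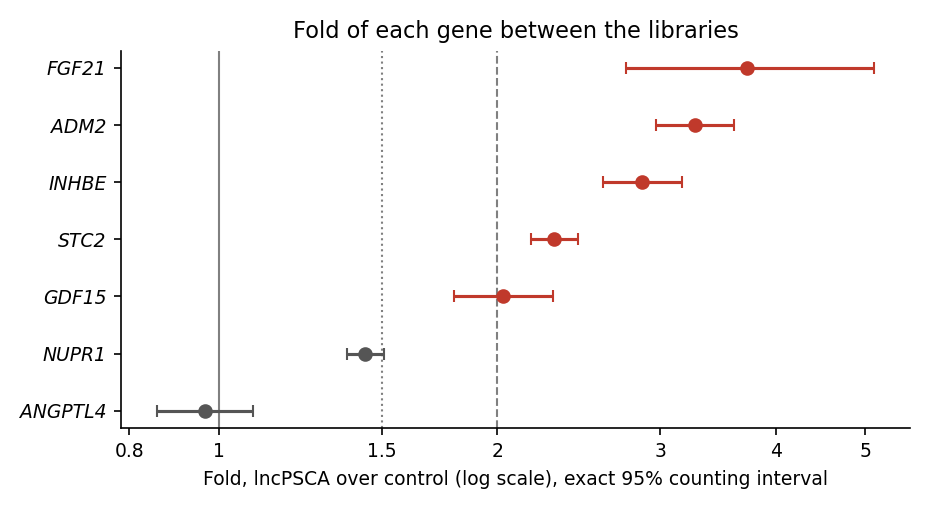
Fold of lncPSCA over control for each gene on a log axis, with exact 95% counting intervals; the solid line marks 1-fold, the dotted line 1.5-fold and the dashed line 2-fold, and red points are the genes called higher. FGF21, ADM2, INHBE and STC2 lie wholly right of the dashed line, the interval of GDF15 (1.79 to 2.30) crosses it, and NUPR1 and ANGPTL4 lie to its left.

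The 7 genes together took 0.0610% of the lncPSCA counts and 0.0303% of the control counts. Their summed abundance was 597 CPM in lncPSCA and 309 CPM in control. Of the summed CPM difference, STC2 made up 33.1%, NUPR1 21.3%, ADM2 20.2% and INHBE 16.8%, whereas FGF21, with the largest fold, made up 2.42%. Longer transcripts give more reads, so these shares are of reads and not of molecules.

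Levels can be set against each other only per length. Divided by the merged exon length of each gene in GENCODE release 29, abundance in the lncPSCA library was 35.4 CPM per kilobase for NUPR1, 27.4 for STC2, 24.6 for INHBE, 19.6 for ADM2, 17.4 for GDF15, 9.82 for ANGPTL4 and 7.25 for FGF21. In control these per-kilobase levels were 24.6 for NUPR1, 11.9 for STC2, 10.2 for ANGPTL4, 8.57 for INHBE, 8.56 for GDF15, 5.996 for ADM2 and 1.95 for FGF21. ANGPTL4 thus ranked 6 of 7 in lncPSCA and 3 of 7 in control. Neighbours INHBE and GDF15 could not be ordered in control. The order in the middle depends on the transcript assumed: with the longest coding transcript, GDF15 ranked 2 in place of 5 in control, at 14.9 CPM per kilobase. Coding transcripts of NUPR1 run from 550 to 5491 bases and those of ADM2 from 535 to 4276, so their per-length levels are the least certain.

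The genes were also read against others of like length and abundance, in 10 bins of equal size. Measured genes in the same bin of exon length had median log2 ratios from -0.14 for the bin of FGF21 and GDF15 to -0.01 for that of STC2 and NUPR1. Genes in the same bin of mean CPM had medians from -0.15 for NUPR1 to 0.13 for FGF21. The log2 ratios of the 5 genes called higher ran from 1.02 to 1.88. A call requires a ratio of at least 2-fold, so that they lie above these medians follows from the rule. With ratios centred along mean expression, all 5 were still called higher.

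**Figure D3:**
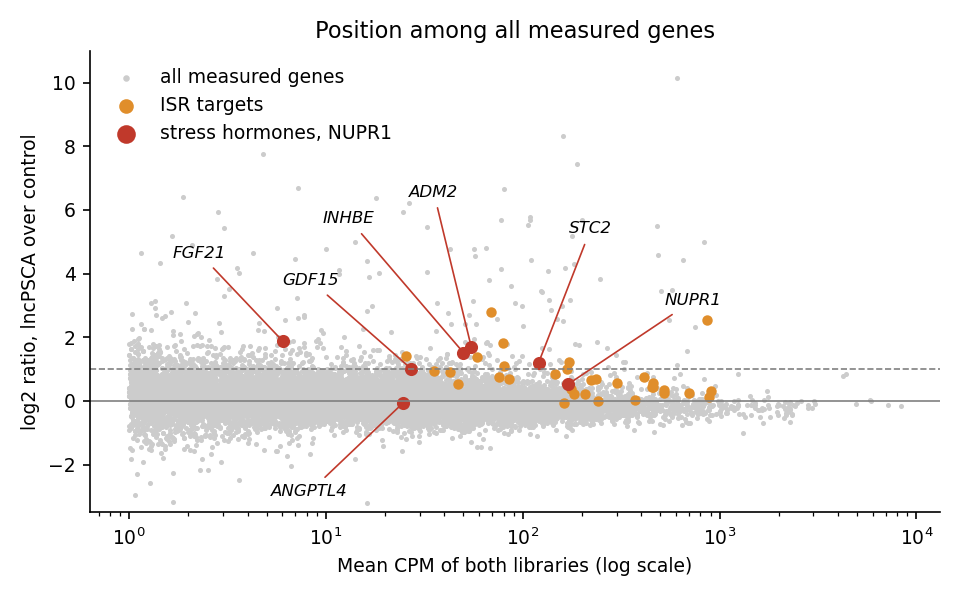
Log2 ratio of lncPSCA over control against mean CPM (log axis) for all measured genes (grey), 32 target genes of the integrated stress response (ISR, orange) and the 6 hormone genes with NUPR1 (red, labelled); the solid line marks a log2 ratio of 0 and the dashed line 1. FGF21, ADM2, INHBE, STC2 and GDF15 lie on or above the dashed line at mean abundances from 6.04 to 120 CPM, NUPR1 between the lines at 0.53 and ANGPTL4 at -0.05.

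Of 18 paralogs of these genes, 8 were measured, and IAPP and NUPR2 had no read in either library. The other endocrine fibroblast growth factors FGF19 and FGF23 had 13 and 0 reads in lncPSCA and 16 and 6 in control. INHBA, the subunit of activin A, had 4 reads in lncPSCA and 0 in control, and INHA, the alpha subunit shared by inhibins, had 2 in each. CALCA and CALCB, of the calcitonin family, had 1 and 4 reads in lncPSCA and 0 and 4 in control. INHBB was at 4.42 CPM in lncPSCA and 3.32 CPM in control, a fold of 1.33 (0.975 to 1.83). INHBC, the neighbour of INHBE on the same strand 1495 bases away, had 46 reads in lncPSCA and 7 in control, a fold of 5.90 (2.64 to 15.5). On the other side of INHBE, GLI1, 855 bases away, had a fold of 1.46 (1.24 to 1.72), and whether reads running past gene ends contribute was not tested.

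Adrenomedullin (ADM), the closest relative of ADM2, had a ratio of the opposite sign and was not called: 24.8 CPM in lncPSCA and 32.1 CPM in control, a fold of 0.772 (0.690 to 0.863). The fold intervals of ADM and ADM2 did not overlap. STC1, the paralog of STC2, had 81 reads in lncPSCA and 21 in control and was called higher at 3.46-fold (2.12 to 5.89), from a level under 1 CPM in control.

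Among angiopoietin-like genes, ANGPTL2 was at 24.5 CPM in lncPSCA and 28.2 CPM in control (0.872-fold, 0.776 to 0.979), and ANGPTL8, an insulin-responsive lipase regulator, at 2.25 CPM in lncPSCA and 1.66 CPM in control (1.36-fold, 0.870 to 2.15). ANGPTL5 and ANGPTL7 had 1 read each in lncPSCA and 0 and 2 in control. ANGPTL1 was called higher with 239 reads in lncPSCA and 70 in control (3.06-fold, 2.34 to 4.06); RALGPS2, which it overlaps on the opposite strand, was at 1.16-fold (0.843 to 1.60). ANGPTL6 was called higher with 516 reads in lncPSCA and 28 in control, a fold of 16.5 (11.3 to 25.1). ANGPTL6 overlaps SHFL, an interferon-induced antiviral gene on the opposite strand, which had 1943 reads in lncPSCA and 63 in control (27.7-fold, 21.5 to 36.2), and without the strand setting the reads of these genes cannot be told apart. In all, 4 of the 8 measured paralogs were called higher and none lower, where 3.02% of all measured genes were called higher and 0.596% lower. With a minimum of 5 CPM, 2 paralogs were called higher.

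Receptor genes for these hormones were detected in part. FGF21 needs the co-receptor KLB (beta-klotho), which had 0 reads in both libraries; taking 3 counts as the limit a count of 0 allows, this is up to 0.128 CPM in lncPSCA and 0.142 CPM in control. GFRAL and RET, which together form the GDF15 receptor, and KL also had 0 reads in both libraries. The FGF receptors were not alike. FGFR1 had 6 reads in lncPSCA and 18 in control and was not measured. FGFR3 was at 155 CPM in lncPSCA and 221 CPM in control (0.699-fold, 0.669 to 0.730), FGFR4 was at 109 CPM in lncPSCA and 102 CPM in control (1.07-fold, 1.01 to 1.14), and FGFR2 was at 29.4 CPM in lncPSCA and 30.2 CPM in control.

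CALCRL, the receptor that ADM2 uses with a RAMP protein, had 76 reads in lncPSCA and 49 in control (1.39-fold, 0.959 to 2.04). RAMP1 and RAMP3 had no reads in either library, and RAMP2 had 2 reads in lncPSCA and 0 in control. ACVR1C (ALK7), the type I receptor through which activin E acts on fat cells, had 2 reads in lncPSCA and 1 in control. The type II activin receptors ACVR2A and ACVR2B were at 7.40 and 9.14 CPM in lncPSCA, and at 5.50 and 6.87 CPM in control, and the type I receptor ACVR1B was at 39.5 CPM in lncPSCA and 31.9 CPM in control (1.24-fold, 1.12 to 1.37). None of the 7 measured receptor genes of 16 was called, where 3.02% of all measured genes were called higher and 0.596% lower.

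Genes for proteins that act with the hormones outside the cell also showed no call among 5 measured. Over all measured genes, 3.02% were called higher and 0.596% lower. LPL, the lipase ANGPTL4 inhibits, had 1 read in each library, and PAPPA, the protease STC2 inhibits, had 5 reads in lncPSCA and 1 in control. IGFBP4 and IGFBP5, PAPP-A substrates that bind insulin-like growth factors, were at 545 and 87.6 CPM in lncPSCA and at 415 and 55.8 CPM in control, folds of 1.32 (1.28 to 1.35) and 1.57 (1.46 to 1.69). FURIN, a convertase that cleaves pro-hormones, was at 27.3 CPM in lncPSCA and 29.3 CPM in control. FAP, the protease that inactivates FGF21, was at 5.49 CPM in lncPSCA and 3.84 CPM in control.

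Of 4 nuclear genes linked to NUPR1 or to signalling of this family (EP300, MSL1, PTMA and SMAD4), none was called. Over all measured genes, 3.02% were called higher and 0.596% lower. PTMA, prothymosin alpha, which binds NUPR1, was the furthest from 1 at 0.619-fold (0.610 to 0.628), with 1275 CPM in lncPSCA and 2061 CPM in control. PTMA has many processed pseudogenes, so its count depends on how reads with several matches were treated. The acetyltransferase EP300 was at 1.20-fold (1.15 to 1.26) and MSL1, a subunit of a histone acetyltransferase complex, at 0.817-fold (0.776 to 0.860).

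Other genes of the integrated stress response had, by their median, smaller ratios. The 7 genes and this list were chosen with earlier results of these data known, so that order describes the choice. Of 32 other targets, 8 were called higher, none lower and 24 neither, where 3.02% of all measured genes were called higher and 0.596% lower. A log2 ratio above 0 was found for 31 of them, and for 48.1% of all measured genes. The median was 0.62, a 1.54-fold difference. The 8 were CHAC1, a glutathione-degrading enzyme (6.94-fold, 6.22 to 7.76), the mTORC1 inhibitor DDIT4 (5.81-fold, 5.65 to 5.98), the leucine sensor SESN2 (3.51-fold, 3.24 to 3.81), the neutral amino acid transporter SLC1A4 (2.67-fold, 2.34 to 3.06), the cystine transporter SLC7A11 (2.58-fold, 2.37 to 2.82), the mitochondrial gluconeogenic enzyme PCK2 (2.31-fold, 2.20 to 2.43), the glycine transporter SLC6A9 (2.13-fold, 1.98 to 2.29) and the alanine aminotransferase GPT2 (2.003-fold, 1.91 to 2.10). DDIT4 overlaps the antisense gene DDIT4-AS1, which had 22249 reads in lncPSCA and 3445 in control, and SLC7A11 overlaps SLC7A11-AS1, with 165 reads in lncPSCA and 46 in control.

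Only CHAC1 and DDIT4 of the 32 had a larger fold than FGF21. By log2 ratio over these 2 libraries, the targets nearest to FGF21 were SESN2 and SLC1A4, to ADM2 also SESN2 and SLC1A4, to INHBE SLC1A4 and SLC7A11, to STC2 PCK2 and SLC6A9, and to GDF15 GPT2 and SLC6A9. The folds of the 24 targets not called ran from 0.958 for ALDH18A1, which makes a proline precursor, to 1.91 for the lipoprotein receptor VLDLR. Of the serine synthesis enzymes among them, PHGDH was at 1.36-fold, PSAT1 at 1.19-fold and PSPH at 1.60-fold. The tRNA synthetases on the list were at 1.01-fold (NARS1), 1.03-fold (SARS1), 1.28-fold (AARS1), 1.31-fold (CARS1), 1.48-fold (GARS1) and 1.69-fold (WARS1), and ASNS, asparagine synthetase, was at 1.60-fold (1.54 to 1.67). TGATGNAA was found in 7 of the 25 target promoters in the table (28%), among them CHAC1, ASNS and NARS1, whose folds span the range from 6.94 to 1.01. The CHAC1 match reads TTGCATCA, the same letters as in FGF21. The matches of CARS1 (1.31-fold) and AARS1 (1.28-fold), neither of them called, read the same.

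Among 13 regulators of the pathway, 2 were called higher and none lower, where 3.02% of all measured genes were called higher. The median log2 ratio of the regulators was 0.38. EIF2AK2, the kinase PKR that binds double-stranded RNA and is itself an interferon-induced gene, was at 372 CPM in lncPSCA and 103 CPM in control, a fold of 3.604 (3.44 to 3.78). The other eIF2 kinases stayed near 1: EIF2AK1 at 0.9997-fold (0.968 to 1.03), EIF2AK3 at 1.20-fold (1.05 to 1.37) and EIF2AK4 at 1.08-fold (1.002 to 1.17). ATF3, a transcription factor downstream of ATF4, was called higher at 2.08-fold (1.95 to 2.23).

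ATF4 mRNA itself was at 625 CPM in lncPSCA and 512 CPM in control, 1.22-fold (1.19 to 1.25), although this factor is controlled mainly at translation, which was not measured. DDIT3 (CHOP) was at 1.46-fold (1.35 to 1.57), CEBPB at 1.498-fold (1.41 to 1.59), CEBPG at 1.51-fold (1.43 to 1.60) and the feedback pseudokinase TRIB3 at 1.86-fold (1.75 to 1.97), none of them called. ATF5 was below 1 at 0.606-fold (0.541 to 0.680). PPP1R15A (GADD34) and PPP1R15B, which direct dephosphorylation of eIF2, were at 1.17-fold (1.10 to 1.23) and 1.31-fold (1.24 to 1.38).

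Other pathways known to induce members of the set are given for comparison. Of 15 targets of ATF6 and XBP1 in the unfolded protein response, none was called. Their median log2 ratio was -0.09, and 4 lay above 0. Of all measured genes, 3.02% were called higher, 0.596% lower, and 48.1% had a log2 ratio above 0. HSPA5 was at 641 CPM in lncPSCA and 733 CPM in control (0.874-fold, 0.854 to 0.894), and HERPUD1, which ATF4 also induces, had the largest fold of the list at 1.63 (1.52 to 1.76).

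Of 17 PPAR receptors and targets, 10 were measured and none was called, where 3.02% of all measured genes were called higher and 0.596% lower. The median log2 ratio was -0.11, and 3 of the 10 lay above 0. Those above 0 were PPARA at 1.33-fold (1.12 to 1.58), ACADVL at 1.10-fold (1.05 to 1.16) and PPARD at 1.06-fold (0.940 to 1.19). CPT1A, the gatekeeper of mitochondrial fatty acid oxidation, was at 136 CPM in lncPSCA and 188 CPM in control (0.723-fold, 0.690 to 0.758), and PDK4 had no reads in either library. Of 14 measured hypoxia targets of 15, 3 were called higher, where 3.02% of all measured genes were, and the median was 0.15. The 3 were CA9, with 141 reads in lncPSCA and 2 in control, a ratio of 63.3 (17.2 to 528), the glycolytic regulator PFKFB4 (2.85-fold, 2.23 to 3.67) and STC1. VEGFA, which ATF4 also induces, was at 1.79-fold (1.70 to 1.89), while EGLN3 was at 0.710-fold (0.652 to 0.772) and NDRG1 at 0.862-fold (0.713 to 1.04).

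**Figure D4:**
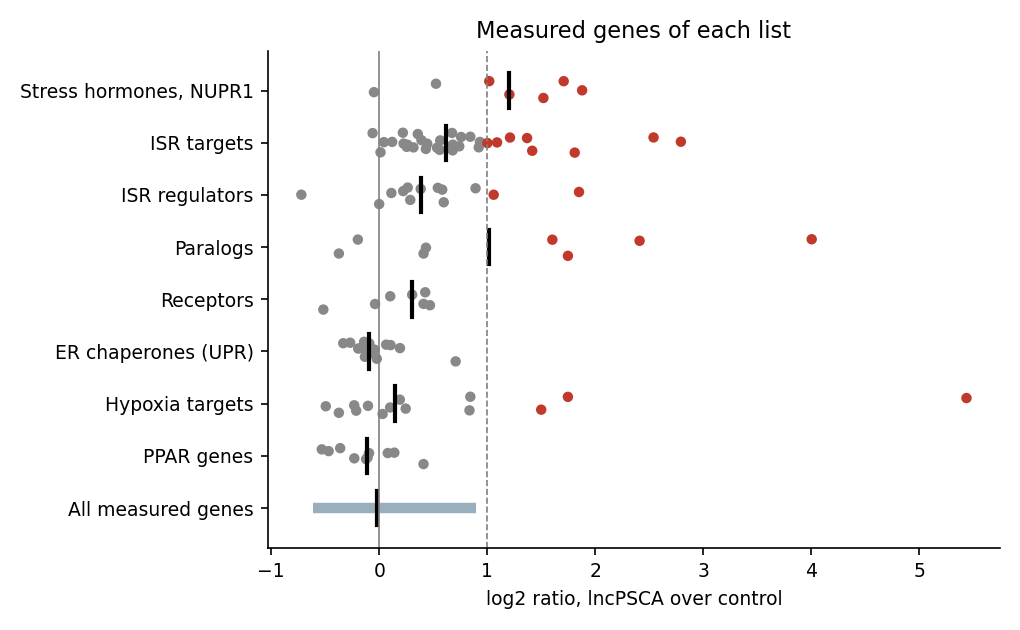
Log2 ratio of lncPSCA over control for the measured genes of each list, 1 point per gene, red where called higher, with a black bar at the list median; the bottom row gives the middle 90% of all measured genes (-0.62 to 0.90) with its median. The 6 hormone genes with NUPR1 have a median of 1.20, the ISR targets 0.62, the ISR regulators 0.38 and the ER chaperones of the unfolded protein response (UPR) -0.09. The lists were chosen with earlier results of these data known.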

How the data were processed

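The deposited table holds the authors' raw counts for each Ensembl gene, as whole numbers in 1 column per library. The submitters' processing notes name TopHat2, HTSeq and hg19, with no roles, versions or parameters. Strand setting, annotation release, treatment of multiply mapped reads and library kit: not given in the sources used here.

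Gene symbols came from a table of Ensembl identifiers, which matched 52181 of 63677 rows (81.9%). Library sizes were scaled by TMM (edgeR 4.0.16; factors 1.02 for lncPSCA and 0.979 for control). Log2 ratios used a pseudocount of 1, and folds did not. Fold intervals are exact (Clopper-Pearson), and CPM intervals are exact Poisson ones. For a count of 0, the limit given is 3 counts, not the Poisson bound. Quasi-likelihood tests could not be fitted with 1 library per group. Exon lengths and neighbours came from GENCODE release 29, an annotation of GRCh38 and not of the authors' build.

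The 7 genes, the lists and the size rule were chosen with earlier results of these data known. Genes named are the 7, all called genes of the other lists, the paralogs, receptors and pathway regulators, and, chosen after their values were seen, the uncalled genes of the remaining lists and the neighbouring genes. GPIHBP1 was not analysed here. Alternatives were 3 other scalings, 2 other pseudocounts, 2 other CPM minimums, centring along mean expression and 2 assumed spreads between cultures.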

Additional observations from a re-analysis of the deposited data

How the results depend on the processing

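Without a spread between cultures, the calls depend most on what that spread is taken to be. With an assumed coefficient of variation of 0.2 between cultures, 3 of the 7 genes were still called higher (FGF21, INHBE and ADM2), along with 4 of the 32 stress response targets and 1 of the 13 regulators; with 0.4, the counts were 0 of the 7, 2 of the 32 and 0 of the 13. GDF15 also fell short of the 2-fold limit under upper-quartile scaling, with a log2 ratio of 0.99 against 1.02. Under the other 7 alternatives all 5 calls held. The median log2 ratio of the 7 genes was 1.33 when centred along mean expression, against 1.20. ANGPTL4 changed sign under total counts (0.0122). Upper-quartile scaling left 7 of the 8 stress response targets, centring gave 3 regulators in place of 2, and a minimum of 5 CPM left 2 of the 4 paralogs and 1 of the 3 hypoxia targets, as genes of few reads then drop out. With the assumed spread of 0.4, 2 paralogs and 1 hypoxia target were called. NUPR1 was not called under any of the 10 alternatives, with log2 ratios from 0.50 to 0.66. Over all genes, 212 were higher and 27 lower with the assumed spread of 0.2, and 104 and 5 with 0.4, against 467 and 92; a minimum of 5 CPM left 284 and 46, and no minimum gave 150 lower. No replicate could be left out, since each group has 1 library. No paired analysis was possible because each group has 1 library and the labels carry no shared number. Depth limits FGF21 most, at 54 control reads.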
